A study of Rattus norvegicus and Mus musculus with 24 samples.

Results

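The genes of sterol and fatty acid synthesis and of their control were followed in kidneys of mice and rats that lack Ctns, the gene of the lysosomal cystine transporter. The set holds 37 genes, chosen by name from the pathway, though with earlier results of these data known. A gene was taken as measured where its symbol stood in the table of a species. All 37 were among the 17376 symbols of the mouse table. Of the 14931 symbols of the rat table, 33 were members, so LSS, NSDHL, ACACA and FADS2 were not analysed here in the rat, and ELOVL6, with 1 to 8 reads in each rat, lay under the filter on low counts, which left 32 members tested there.

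Cells make cholesterol from acetyl-CoA through mevalonate, squalene and lanosterol, and make fatty acids from the same precursor through malonyl-CoA, after which desaturases and elongases shape the chains. Most of these enzymes are target genes of the SREBP transcription factors, which SCAP escorts out of the endoplasmic reticulum when membrane sterol is low and which the INSIG proteins hold back when it is high. The LXR receptors sense oxidised sterols and drive the exporters ABCA1 and ABCG1. In the kidney the proximal tubule burns fatty acids for most of its energy and takes up lipoproteins and other proteins by endocytosis.

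RNA was sequenced from 4 Ctns KO and 4 Ctns WT mice on a C57BL/6 background, and, in the rat, on a Sprague-Dawley background, from 8 animals of each genotype, with 1 library an animal with control littermates as WT, and the labels name no treatment or further allele. The labels call the tissue kidney cortex and the cell type proximal tubule cells, their protocol speaks of dissected tubules and the methods of cortex. The labels give neither age nor sex, and the study describes its mice as female without tying an age to these animals. Both lines lack Ctns in the whole animal. The rats carry the numbers 17 to 24 and 25 to 32, with 4 rats of each genotype in each range, and what the ranges stand for is not given in the sources used here. No animal is tied to a litter or a day of collection, so a p-value measures the spread between these animals only.

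Reads on genes numbered 19309371 to 44449843 a mouse and 24684097 to 40629873 a rat. Mouse levels are given as deposited, in scaled units in which the 75th percentile of each library is 1, and rat levels as CPM, read counts scaled to a common library size by TMM and given per 1000000. Neither is divided by gene length, so levels are compared between animals and not between genes. Ctns was 0.319 to 0.342 scaled units in the KO mice and 0.824 to 1.03 in the WT mice. In rats 17 to 24 it was 16.8 to 20.8 CPM in KO and 19.2 to 22.7 CPM in WT, and in rats 25 to 32 it was 17.4 to 22.2 CPM in KO and 21.4 to 27.8 CPM in WT, so this transcript checks the genotype labels of the mice but not those of single rats. The 10 proximal tubule markers were all above 1 CPM in the mice, as were the 8 that the rat table lists. In 1 KO mouse, number 3, the sex-linked transcripts (XIST and 4 Y-linked genes, the latter without reads in any mouse) summed to 2.54 CPM against 892 to 1121 CPM in the other 7 mice, and without this animal ABCA1 was again the 1 member of 37 that passed in the mouse.

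Promoter sequence was read for the rat members, because this is where the transcription factors of the pathway act. RefSeq sequence of build GRCr8, which is not the build of the deposited files (rn5 and mm10 per the labels), was at hand for 29 of the 37 members, with none for PMVK, FDFT1, SQLE, ACACA, FASN, ELOVL6, STARD4 and ABCG1. In the 250 bases before the start, the letters TCACNCCAC, a form of the sterol regulatory element, occurred on either strand in 0 of the 29 members and in 0.974% of all 33469 rat promoters of the same length. With a share this low, 0 of 29 did not show that the members lack the element. Other forms of it and sites further away were not searched. The letters CCAAT, the box of the factor NF-Y, occurred on either strand in 21 of the 29 and in 34.0% of all promoters. The last 130 bases before the start are shown for 3 members that rose and 2 that fell in Ctns KO rats 25 to 32, with each CCAAT, or ATTGG where it lies on the other strand, in capitals.
MVK (chr12:47819504-47819633, minus strand): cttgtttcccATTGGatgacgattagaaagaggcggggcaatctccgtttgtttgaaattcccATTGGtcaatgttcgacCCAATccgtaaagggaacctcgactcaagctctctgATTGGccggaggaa
MVD (chr19:67414975-67415104, minus strand): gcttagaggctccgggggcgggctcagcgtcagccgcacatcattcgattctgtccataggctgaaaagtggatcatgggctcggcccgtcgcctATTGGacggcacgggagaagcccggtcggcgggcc
TM7SF2 (chr1:212789542-212789671, minus strand): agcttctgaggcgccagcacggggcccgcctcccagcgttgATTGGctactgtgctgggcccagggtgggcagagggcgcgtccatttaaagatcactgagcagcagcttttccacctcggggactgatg
SC5D (chr8:51538278-51538407, minus strand): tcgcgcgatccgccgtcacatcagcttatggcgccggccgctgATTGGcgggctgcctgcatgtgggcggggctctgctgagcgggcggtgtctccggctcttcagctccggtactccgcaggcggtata
ELOVL5 (chr8:87671034-87671163, plus strand): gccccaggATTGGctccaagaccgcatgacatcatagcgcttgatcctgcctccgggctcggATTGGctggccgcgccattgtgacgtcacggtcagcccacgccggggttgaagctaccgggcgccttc
The MVK window held 4 such boxes, the ELOVL5 window 2 and each of the other 3 windows 1. Among members with sequence, the box was present in the 250 bases of 4 of the 5 that rose in rats 25 to 32 (MVK, MVD, TM7SF2 and FADS1, not CYP51A1), of 4 of the 5 that fell (SC5D, INSIG2, ACLY and ELOVL5, not NR1H3) and of 11 of the 16 that were tested and did not pass. The 8 members with no entry in the promoter table were not searched.

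The first comparison asked which members differed between Ctns KO and WT mice. ABCA1, the membrane pump that hands cholesterol to apolipoproteins, was the 1 member of 37 that passed, and it was higher in KO. All 6 mevalonate genes, all 11 genes from squalene to cholesterol and all 5 of the SREBP control did not pass. Over all 12555 symbols tested, 8.75% passed at an adjusted p under 0.05 (limma with Benjamini-Hochberg adjustment, the threshold used throughout), and with edgeR on the recovered reads, where STARD4 passed as well, it was 8.91%. The median log2 fold change over the 37 members was -0.02, beside 0.01 over all symbols tested.

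ABCA1 (Abca1, GRCm38 chr4:53030787-53159895, minus strand, protein coding) was 0.895, 1.17, 1.18 and 1.34 scaled units in WT mice 1, 2, 4 and 7 and 1.59, 1.83, 1.56 and 1.79 in KO mice 3, 5, 6 and 8. The lowest KO mouse stood above the highest WT mouse. The means were 1.15 ± 0.186 (SD, n = 4) and 1.69 ± 0.141 (SD, n = 4), a log2 fold change of 0.57 (SE 0.11, 1.48-fold, limma adjusted p = 0.00697). It passed in all 8 fits that left out 1 mouse, KO mouse 3 among them, with log2 fold changes of 0.46 to 0.65. Markers of other cells were also higher in KO mice: the 11 macrophage markers summed to 219 to 264 CPM in KO and 140 to 143 CPM in WT mice, with 10 of the 10 tested passing, and the 6 fibroblast markers to 274 to 315 CPM against 139 to 172 CPM. ABCA1 is made in macrophages as well as in tubules. In the rat, over both number ranges, 9 of the 10 macrophage markers tested were higher in KO, while ABCA1 did not pass. The part of these other cells in the change of ABCA1 in the mouse was not tested. In bulk RNA of this kind, fewer cells of a type and less RNA per cell cannot be told apart.

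STARD4, a carrier that moves cholesterol through the cytosol, was 2.99, 3.08, 2.92 and 3.13 scaled units in the WT mice and 2.52, 2.49, 2.91 and 2.54 in the KO mice. All 4 KO values lay under the lowest WT value, KO mouse 6 only just. Its log2 fold change was -0.22 (SE 0.07) and its adjusted p 0.0583 with limma, 0.0393 with edgeR (log2 fold change -0.23) and 0.0129 with DESeq2 (-0.23), so the call rested on the test. Without KO mouse 6 it passed with limma as well (log2 fold change -0.27, adjusted p = 0.0315). NR1H3, the LXR-alpha receptor, had a log2 fold change of -0.25 (SE 0.10, limma adjusted p = 0.143) and passed only without WT mouse 2 (-0.33, adjusted p = 0.0248). The other receptor, NR1H2, had one of 0.03 (SE 0.08, adjusted p = 0.891).

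None of the SREBP genes and of the genes that hold them back passed in the mouse. SREBF1, the lipogenic SREBP, had a log2 fold change of -0.17 (SE 0.21, limma adjusted p = 0.722), and SREBF2, the sterol SREBP, had one of -0.10 (SE 0.08, adjusted p = 0.527). For SCAP it was -0.05 (SE 0.06, adjusted p = 0.735), for INSIG1 -0.20 (SE 0.25, adjusted p = 0.717) and for INSIG2 0.00456 (SE 0.07, adjusted p = 0.982). INSIG1, itself an SREBP target, was 0.755, 1.55, 1.02 and 1.65 scaled units in the WT mice and 1.03, 1.07, 1.01 and 1.01 in the KO mice, so the spread lay in the WT group. HMGCS1, the first enzyme of the mevalonate path in this set, was likewise 3.49 to 9.05 scaled units in WT and 4.97 to 7.81 in KO mice (log2 fold change 0.22, SE 0.30, adjusted p = 0.752). SQLE, the epoxidase of squalene, had the largest of the 11 values from squalene to cholesterol, 0.21 (SE 0.13, adjusted p = 0.424), and EBP the lowest, -0.19 (SE 0.09, adjusted p = 0.231).

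FASN, ACACA and SCD were highest in the same 2 mice, 1 of each genotype, while ACLY and ACSS2 were highest in WT mouse 1 (8.43 and 6.27 scaled units) and ACACB in WT mouse 7 (1.61) and KO mouse 5 (1.59). FASN, the fatty acid synthase, was 3.24 scaled units in WT mouse 7 and 2.97 in KO mouse 3, and 1.61 to 2.004 in the other 6. ACACA, the cytosolic acetyl-CoA carboxylase, was 0.892 in WT mouse 7 and 0.951 in KO mouse 3 and 0.461 to 0.708 in the rest, and SCD, the stearoyl-CoA desaturase, was 5.88 and 4.08 in these mice and 2.68 to 3.64 in the rest. The same mice had the most adipocyte marker RNA, with sums over the 9 markers of 189 CPM (mouse 7) and 180 CPM (mouse 3), beside 35.0 to 50.4 CPM in the other 6. The part of fat cells in these levels was not tested, and none of the 3 genes passed between genotypes (log2 fold changes 0.12 for ACACA, -0.02 for FASN and -0.10 for SCD, with SE 0.24, 0.28 and 0.25). Without KO mouse 3 these were -0.04, -0.21 and -0.19, with adjusted p of 0.952, 0.741 and 0.793. SCD, with reads that were not whole, may stand for several mouse Scd genes under the human symbol, and IDI1 shares this limit in the mouse.

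**Figure D1:**
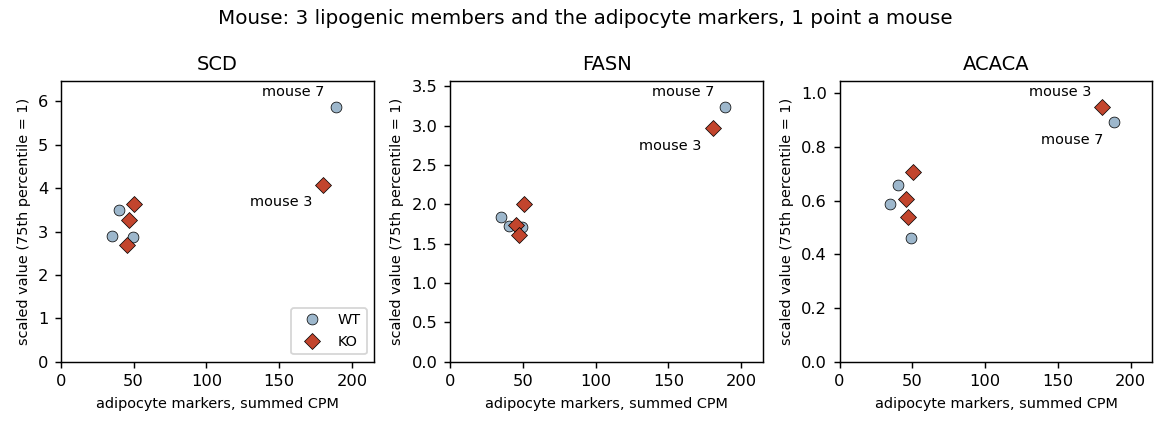
Scaled value of SCD, FASN and ACACA in each mouse (y axis, 75th percentile of the library = 1) against the summed CPM of 9 adipocyte markers (x axis); circles are WT mice and diamonds KO mice, 1 point a mouse. WT mouse 7 and KO mouse 3 lie at 189 and 180 CPM and hold the highest values of all 3 genes, while the other 6 mice lie between 35.0 and 50.4 CPM.

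In the rat, genotype was compared over both number ranges with the range in the model, and then within each range. Over all 16 rats 14 of the 32 members tested passed, 8 higher and 6 lower in Ctns KO, beside 44.0% of all 11839 symbols (21.4% higher and 22.6% lower). In rats 25 to 32 it was again 14 of 32, 8 higher and 6 lower, beside 50.0% of all symbols (23.7% higher and 26.2% lower). In rats 17 to 24 no member passed, beside 6.96% of all symbols, although 7 of the 32 had an unadjusted p under 0.05 (4 higher and 3 lower), as did 19.4% of all symbols. The set as a whole therefore passed about as often as other symbols did, and its median log2 fold change in rats 25 to 32 was 0.05 beside -0.01. What follows is which members moved and in what direction.

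The mevalonate genes that passed all rose. In rats 25 to 32 they were MVK, PMVK and MVD, the kinases and the decarboxylase that turn mevalonate into isopentenyl diphosphate, and over both ranges HMGCS1 passed too. PMVK was 12.995, 9.50, 12.4 and 11.9 CPM in WT rats 25, 27, 29 and 31 and 15.1, 20.1, 18.5 and 20.01 CPM in KO rats 26, 28, 30 and 32. Each KO rat was above each WT rat, with a log2 fold change of 0.66 (SE 0.11, 1.58-fold, edgeR adjusted p = 0.00016). In rats 17 to 24 PMVK was 15.2, 12.8, 12.1 and 12.6 CPM in WT and 14.02, 14.7, 12.7 and 15.7 CPM in KO, with overlap and a log2 fold change that did not pass. MVK (log2 fold change 0.28, SE 0.09, adjusted p = 0.018) and MVD (0.30, SE 0.08, adjusted p = 0.0047) also did not overlap between genotypes in rats 25 to 32. MVK lost its call there without KO rat 28 (0.25, adjusted p = 0.0574).

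Over both ranges the log2 fold changes were 0.39 for PMVK (SE 0.08, edgeR adjusted p = 0.00089), 0.19 for HMGCS1 (SE 0.06, adjusted p = 0.0177), 0.18 for MVK (SE 0.07, adjusted p = 0.0316) and 0.15 for MVD (SE 0.06, adjusted p = 0.0386), and each of the 4 overlapped between the genotypes when the ranges were put together. HMGCS1 was 34.7 to 39.5 CPM in WT and 40.2 to 43.5 CPM in KO rats 17 to 24, without overlap but also without a passing test (log2 fold change 0.21, SE 0.08, adjusted p = 0.177). It passed there when that range was fitted alone (0.22, adjusted p = 0.0469), and in rats 25 to 32 only without WT rat 25 (0.27, adjusted p = 0.0136). MVK lost its call over both ranges without WT rat 19, 23 or 27 or KO rat 20, 24 or 28 (adjusted p up to 0.075), and MVD without WT rat 17, 19, 23 or 27 or KO rat 24 or 28 (adjusted p up to 0.0853). IDI1 and FDPS, which make the isoprenoid units and farnesyl diphosphate, passed in neither range nor over both.

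From squalene to cholesterol, genes moved in both directions. SQLE, which with its epoxidation is a rate-limiting step of the path, rose most. It was 22.5, 17.2, 17.5 and 15.6 CPM in WT rats 25, 27, 29 and 31 and 29.1, 31.5, 29.997 and 33.8 CPM in the KO rats of the range. No KO rat overlapped a WT rat, and the log2 fold change was 0.77 (SE 0.13, 1.71-fold, edgeR adjusted p = 8.68e-05). Among rats 17 to 24 SQLE was 18.9, 12.9, 13.4 and 11.5 CPM in WT and 18.5, 18.9, 17.7 and 19.3 CPM in KO, where WT rat 17 alone stood among the KO values. The log2 fold change there was 0.40 (SE 0.13, adjusted p = 0.0737). It passed without WT rat 17 (0.56, adjusted p = 0.00337), without WT rat 25 (0.42, adjusted p = 0.0427), with DESeq2 (0.40, adjusted p = 0.0357) and with limma-voom (0.44, adjusted p = 0.0411). Over both ranges it was 0.59 (SE 0.09, adjusted p = 5.16e-05), and it passed in each fit that left out 1 rat.

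CYP51A1, the demethylase of lanosterol, and TM7SF2, a reductase of the sterol ring, also rose. CYP51A1 was 34.7, 27.6, 25.6 and 26.1 CPM in WT and 37.8, 36.0, 38.3 and 37.4 CPM in KO rats 25 to 32 (log2 fold change 0.39, SE 0.10, edgeR adjusted p = 0.00403), without overlap. Within rats 17 to 24 it was 33.6, 26.003, 25.1 and 24.1 CPM in WT and 30.95, 32.2, 35.1 and 33.0 CPM in KO, with WT rat 17 again among the KO rats. It passed in that range only without this rat (0.39, adjusted p = 0.0142). Over both ranges it was 0.33 (SE 0.07, adjusted p = 0.0012). TM7SF2 had a log2 fold change of 0.43 (SE 0.11, adjusted p = 0.00348) in rats 25 to 32, without overlap, and 0.27 (SE 0.08, adjusted p = 0.00861) over both.

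FDFT1 and SC5D were the members of this stretch that fell. FDFT1, squalene synthase, was 185, 162, 235 and 224 CPM in WT and 184, 169, 181 and 170 CPM in KO rats 17 to 24, and 149, 138, 152 and 166 CPM in WT and 121, 121, 120 and 149 CPM in KO rats 25 to 32. It passed over both ranges (log2 fold change -0.22, SE 0.07, edgeR adjusted p = 0.0206, lost without WT rat 31 with -0.18 and an adjusted p of 0.0621) and in neither alone, with overlap in each. In rats 25 to 32 it passed when that range was fitted alone (adjusted p = 0.0410). It also passed there without WT rat 19, 21 or 27 or KO rat 32 (adjusted p from 0.0212). SC5D, a late sterol desaturase, was 98.9, 101, 96.1 and 97.7 CPM in WT and 88.9, 79.5, 78.8 and 77.2 CPM in KO rats 25 to 32. Its groups did not overlap there (log2 fold change -0.28, SE 0.06, adjusted p = 0.000795). For rats 17 to 24 it was 81.2, 72.1, 74.5 and 83.6 CPM in WT and 82.9, 77.7, 80.8 and 84.6 CPM in KO, so that the fall over both ranges was small (-0.11, SE 0.04, adjusted p = 0.0451) and was lost in 12 of the 16 fits that left out 1 rat (adjusted p up to 0.178). The 4 fits that kept it left out WT rat 19 or 21 or KO rat 24 or 26. MSMO1, HSD17B7, EBP and DHCR7 did not pass with edgeR in either range or over both, with log2 fold changes of -0.22 to 0.18 in rats 25 to 32. EBP passed in that range without KO rat 18 or 30 or WT rat 31 (adjusted p from 0.0178). MSMO1 passed over both ranges by DESeq2 and limma-voom, and in edgeR with 1 rat left out (without WT rat 17, 25 or 29 or KO rat 18 or 30, adjusted p from 0.00866).

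**Figure D2:**
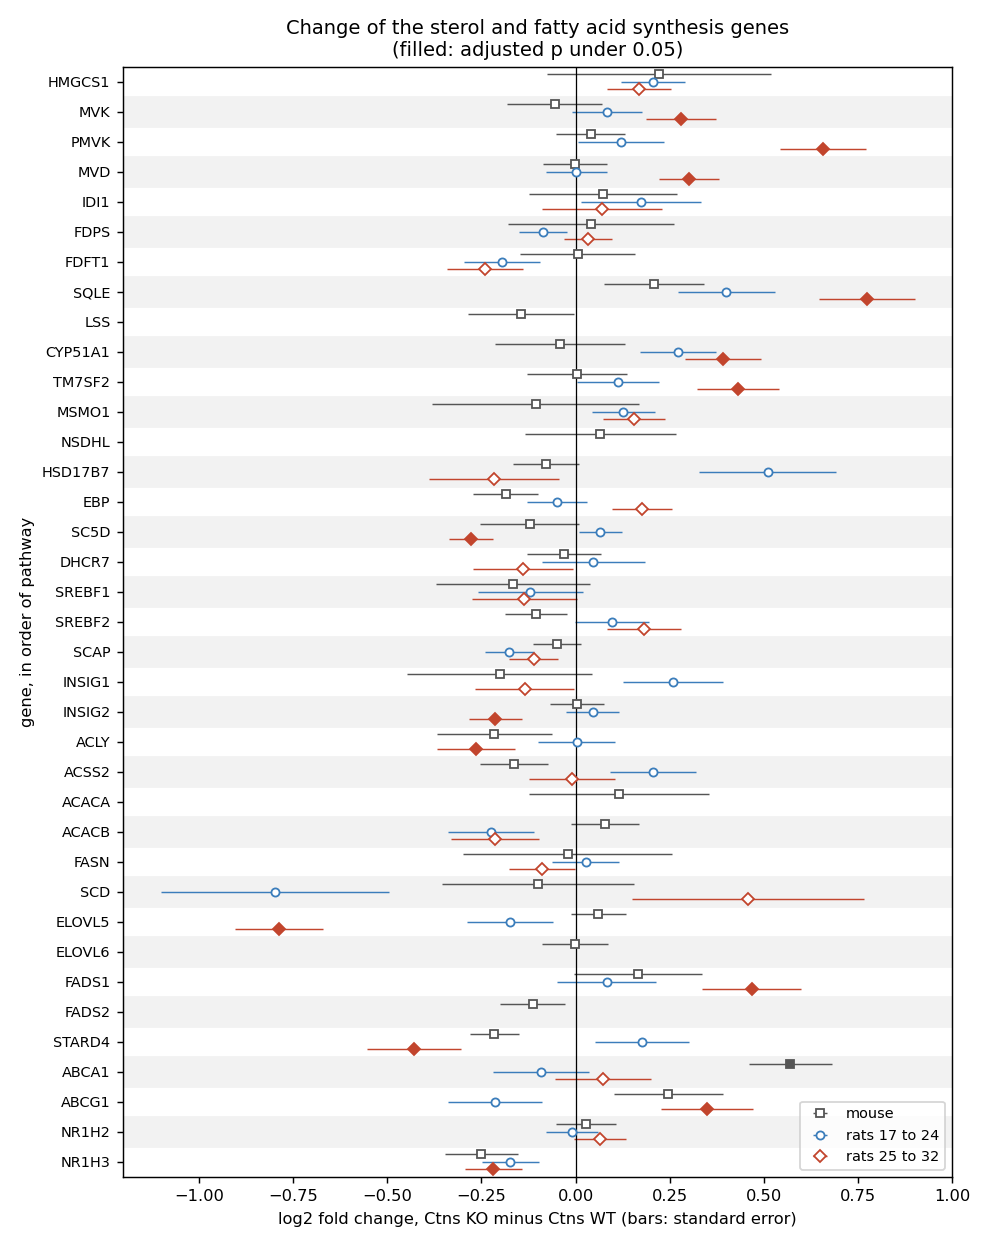
Log2 fold change of Ctns KO against WT (x axis) for each of the 37 members (y axis, in order of the pathway). Squares are mice (limma), circles rats 17 to 24 (edgeR) and diamonds rats 25 to 32 (edgeR). Bars are the standard error, in rats derived from the test statistic, and filled points passed at an adjusted p under 0.05. ABCA1 is filled in the mouse, no gene is filled in rats 17 to 24, and 14 genes are filled in rats 25 to 32, from -0.79 for ELOVL5 to 0.77 for SQLE.

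Of the 5 genes of the SREBP control, SCAP passed over both ranges and INSIG2 in rats 25 to 32, both lower in KO. SREBF1 had a log2 fold change of -0.12 (SE 0.14, edgeR adjusted p = 0.742) in rats 17 to 24 and -0.14 (SE 0.14, adjusted p = 0.438) in rats 25 to 32. SREBF2 had one of 0.10 (SE 0.10, adjusted p = 0.696) and 0.18 (SE 0.10, adjusted p = 0.132). Without WT rat 25 SREBF2 passed in rats 25 to 32 (0.29, adjusted p = 0.0209) and over both ranges (0.20, adjusted p = 0.0206). SCAP fell over both ranges (-0.14, SE 0.05, adjusted p = 0.0178), a call lost without KO rat 18 (-0.12, adjusted p = 0.0676), WT rat 29 (-0.12, adjusted p = 0.072) or KO rat 32 (-0.10, adjusted p = 0.0783). In neither range alone did it pass, other than in rats 17 to 24 without WT rat 17 (-0.23, adjusted p = 0.0443).

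Of INSIG1 and INSIG2, which hold SCAP in the endoplasmic reticulum, INSIG2 passed in rats 25 to 32 and INSIG1 in neither range, and the difference between the genes was not tested. INSIG2 fell in rats 25 to 32, from 39.6, 44.4, 43.2 and 47.6 CPM in WT to 39.3, 37.6, 36.2 and 37.8 CPM in KO, with WT rat 25 just above the highest KO rat. Its log2 fold change was -0.21 (SE 0.07, edgeR adjusted p = 0.0191), and the call was lost without WT rat 31 (-0.15, adjusted p = 0.0959) or KO rat 32 (-0.19, adjusted p = 0.0543). INSIG1 had a log2 fold change of 0.26 (SE 0.13, adjusted p = 0.302) in rats 17 to 24 and -0.13 (SE 0.13, adjusted p = 0.413) in rats 25 to 32.

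Of the genes that supply acetyl-CoA and build fatty acids, 4 were tested in rats and none rose. ACLY, which splits citrate into acetyl-CoA, was 151, 148, 148 and 126 CPM in WT and 127, 115, 117 and 119 CPM in KO rats 25 to 32, where WT rat 31 lay within the KO values. It passed there (log2 fold change -0.27, SE 0.10, edgeR adjusted p = 0.0414) but not without WT rat 25, 27 or 29 or KO rat 18, 28, 30 or 32 (adjusted p up to 0.129). ACACB, the acetyl-CoA carboxylase of the mitochondrial surface, whose product restrains fatty acid oxidation, was 64.4, 75.8, 77.0 and 71.5 CPM in WT and 62.3, 64.0, 57.6 and 63.6 CPM in KO rats 17 to 24, and 47.0, 42.6, 36.6 and 33.2 CPM in WT and 31.3, 32.3, 44.0 and 29.7 CPM in KO rats 25 to 32. It passed over both ranges (-0.22, SE 0.08, adjusted p = 0.0388) and in neither alone; over both it was lost in 12 of 16 fits that left out 1 rat (adjusted p up to 0.132), all but those without WT rat 17 or 31 or KO rat 20 or 30, and it passed in rats 25 to 32 without KO rat 30 (-0.36, adjusted p = 0.00642). FASN and ACSS2, the acetyl-CoA synthetase of the cytosol, did not pass (log2 fold changes -0.09 and -0.00943 in rats 25 to 32).

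Desaturation and elongation held the largest fall of the set. ELOVL5, which lengthens polyunsaturated fatty acids, was 48.8, 60.5, 44.3 and 41.1 CPM in WT and 31.02, 26.4, 32.4 and 22.9996 CPM in KO rats 25 to 32, the highest KO rat under the lowest WT rat. The log2 fold change was -0.79 (SE 0.12, 1.73-fold lower, edgeR adjusted p = 3.12e-05). Among rats 17 to 24 it was 44.6, 45.6, 48.7 and 51.0 CPM in WT and 40.2, 41.2, 47.1 and 39.8 CPM in KO (log2 fold change -0.18, SE 0.11, adjusted p = 0.46), with only KO rat 22 within the WT values. Over both ranges it was -0.48 (SE 0.08, adjusted p = 0.000134). It passed over both ranges and in rats 25 to 32 whichever rat was left out.

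FADS1, a desaturase of the same polyunsaturated chains, went the other way. It was 130, 124, 143 and 124 CPM in WT and 175, 178, 183 and 185 CPM in KO rats 25 to 32, a rise without overlap (log2 fold change 0.47, SE 0.13, edgeR adjusted p = 0.00755). Within rats 17 to 24 it was 135, 144, 199 and 117 CPM in WT and 124, 157, 175 and 174 CPM in KO, with overlap. Over both ranges it was 0.27 (SE 0.09, adjusted p = 0.0241), lost without KO rat 22 (adjusted p = 0.0504) or 24 (adjusted p = 0.0513). SCD was low, 1.01 to 3.099 CPM in all 16 rats, with reads that were not whole, and had a log2 fold change of -0.80 (SE 0.30, adjusted p = 0.136) in rats 17 to 24 and 0.46 (SE 0.31, adjusted p = 0.228) in rats 25 to 32.

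Among the genes of sterol transport and the LXR receptors, ABCG1 rose and STARD4 and NR1H3 fell in rats 25 to 32, and all 3 overlapped between genotypes. STARD4 was 20.7, 22.8, 19.6 and 16.1 CPM in WT and 17.1, 12.5, 16.6 and 12.5 CPM in KO (log2 fold change -0.43, SE 0.12, edgeR adjusted p = 0.00863). ABCG1, a sterol exporter abundant in macrophages, was 29.97, 22.9, 23.8 and 23.7 CPM in WT and 23.7, 35.6, 34.0 and 34.6 CPM in KO (0.35, SE 0.12, adjusted p = 0.0255), with WT rat 25 high and KO rat 26 low in its group. Its call was lost without WT rat 27 (0.30, adjusted p = 0.0752), KO rat 28 (0.29, adjusted p = 0.0838) or KO rat 30 (0.32, adjusted p = 0.0593), and when the range was fitted alone (0.35, adjusted p = 0.0549). The 11 macrophage markers summed to 400 to 573 CPM in KO and 190 to 240 CPM in WT rats of this range, with 9 of 10 tested passing and all 9 higher. In rats 17 to 24 they summed to 212 to 235 CPM in KO and 129 to 175 CPM in WT, with 6 of 10 tested passing as higher. ABCG1 did not pass in that range, with means of 21.5 CPM in KO and 24.9 CPM in WT. The part of macrophages in ABCG1 was not tested.

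NR1H3 was 79.0, 78.5, 88.2 and 92.0 CPM in WT and 71.0, 78.5, 61.6 and 79.2 CPM in KO rats 25 to 32 (log2 fold change -0.22, SE 0.08, edgeR adjusted p = 0.0237). The call was lost without KO rat 26 (-0.21, adjusted p = 0.051), WT rat 29 (-0.17, adjusted p = 0.0947), KO rat 30 (-0.15, adjusted p = 0.0797) or WT rat 31 (-0.16, adjusted p = 0.112), and when the range was fitted alone (-0.21, adjusted p = 0.0703). For rats 17 to 24 it had a log2 fold change of -0.17 (SE 0.08, adjusted p = 0.215), and over both ranges it passed (-0.20, SE 0.05, adjusted p = 0.00696). NR1H2 had log2 fold changes of -0.00843 and 0.06 in the 2 ranges. ABCA1 was 13.5 to 21.1 CPM in the WT and 14.97 to 19.3 CPM in the KO rats, with a log2 fold change over both ranges of -0.01 (SE 0.09, adjusted p = 0.946) and an interval of 2 SE either way of -0.19 to 0.17.

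**Figure D3:**
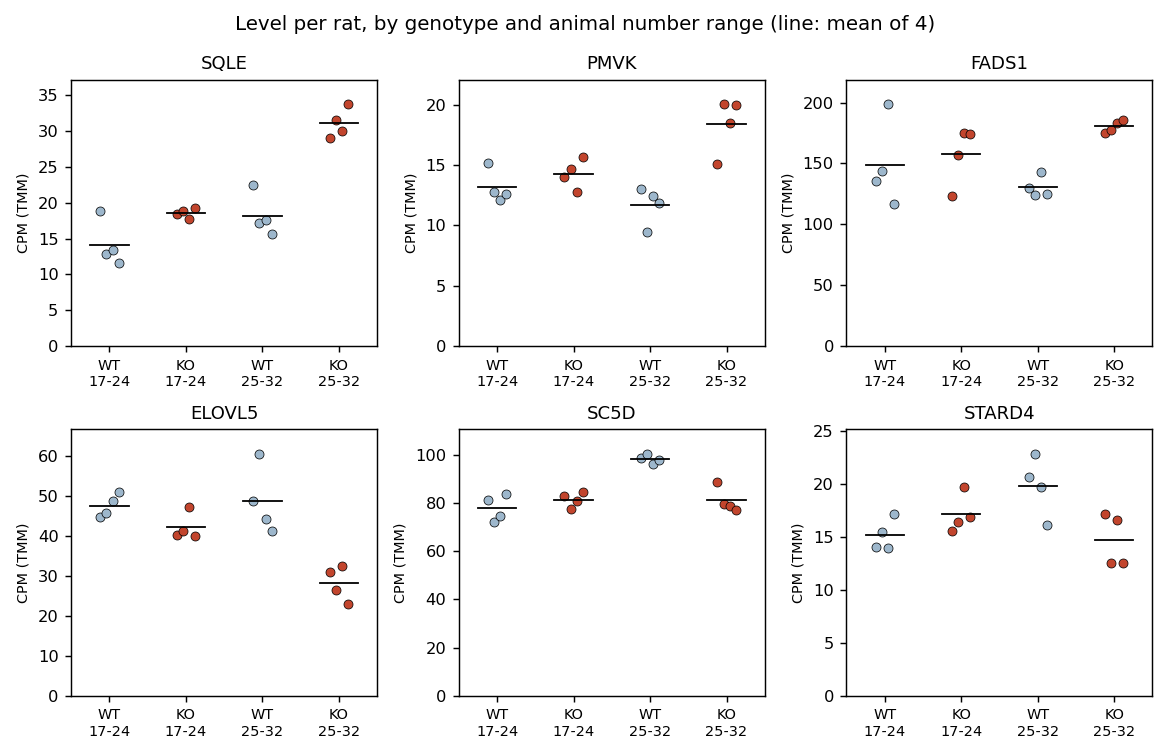
CPM after TMM scaling (y axis, from 0) of 6 members in each rat, by genotype and number range (x axis); points are rats, 4 a group, and lines the group means. SQLE, PMVK and FADS1 lie higher and ELOVL5 and SC5D lower in all 4 KO rats 25 to 32 than in the 4 WT rats of that range, while STARD4 overlaps.

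Whether the change itself differed between the ranges was then tested. It did for 5 of the 32 members, beside 14.7% of all symbols. The difference, rats 25 to 32 minus rats 17 to 24, was positive for ABCG1 (log2 0.56, SE 0.17, edgeR adjusted p = 0.0387) and PMVK (0.54, SE 0.16, adjusted p = 0.0347). It was negative for ELOVL5 (-0.61, SE 0.16, adjusted p = 0.0198), STARD4 (-0.61, SE 0.18, adjusted p = 0.0303) and SC5D (-0.34, SE 0.08, adjusted p = 0.0115). From rats 17 to 24 to rats 25 to 32, mean SC5D went from 81.5 to 81.1 CPM in KO and from 77.9 to 98.3 CPM in WT. Mean STARD4 went from 17.1 to 14.7 CPM in KO and from 15.1 to 19.8 CPM in WT. Mean ELOVL5 went from 42.1 to 28.2 CPM in KO and from 47.5 to 48.7 CPM in WT. ELOVL5 and SC5D passed whichever rat was left out. ABCG1 was lost in 12 of the 16 such fits (adjusted p up to 0.0887), all but those without WT rat 23, WT rat 25, KO rat 18 or KO rat 26; PMVK without WT rat 17, 19 or 27 or KO rat 18, 22, 28 or 32 (adjusted p up to 0.0791); and STARD4 without WT rat 17, 21, 25 or 27 or KO rat 22, 28 or 32 (adjusted p up to 0.0711). SQLE had a difference of 0.37 (SE 0.18, adjusted p = 0.159), so a range dependence of the gene that rose most was not shown. SCD (1.25, adjusted p = 0.0338) and HSD17B7 (-0.72, adjusted p = 0.0392) passed with DESeq2. In edgeR they passed only with single rats left out, in 4 fits for SCD and 3 for HSD17B7.

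STARD4 and ABCG1 lay in opposite orders in the 2 ranges. STARD4 was 14.1, 15.4, 13.9 and 17.1 CPM in WT and 15.5, 16.4, 19.7 and 16.9 CPM in KO rats 17 to 24, where KO was not the lower group. ABCG1 was 24.4, 25.1, 27.5 and 22.7 CPM in WT and 24.4, 18.2, 21.5 and 21.7 CPM in KO rats 17 to 24, where KO was not the higher group. Neither passed in that range (log2 fold changes 0.18 and -0.21, SE 0.12 and 0.13, edgeR adjusted p = 0.517 and 0.459). The 8 proximal tubule markers listed in the rat summed to 9510 to 11903 CPM in KO and 19115 to 22351 CPM in WT rats 25 to 32, and to 12582 to 13293 CPM and 14884 to 17016 CPM in rats 17 to 24. Of the 8 markers, 7 passed as lower in KO rats 25 to 32, and SLC5A2 was level (means 611 CPM in KO and 615 CPM in WT). The share of all symbols that passed was 50.0% in rats 25 to 32 and 6.96% in rats 17 to 24. The part of tubule cells in the members' changes was not tested.

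The WT rats of the 2 ranges also differed from each other. Between them 13 of the 32 members passed, 10 higher and 3 lower in WT rats 25 to 32 than in WT rats 17 to 24, beside 21.1% of all symbols (11.7% higher and 9.43% lower). These WT rats are also the controls of the comparisons above. HSD17B7, a ketoreductase of late sterol synthesis, was 2.90, 2.30, 2.31 and 1.79 CPM in WT rats 17, 19, 21 and 23 and 5.59, 4.11, 3.77 and 3.75 CPM in WT rats 25, 27, 29 and 31 (log2 difference 0.89, SE 0.18, edgeR adjusted p = 0.00183). DHCR7, which makes cholesterol from its last precursor, was 23.9, 18.4, 19.5 and 15.4 CPM in the first and 43.8, 30.8, 31.8 and 30.5 CPM in the second (0.83, SE 0.14, adjusted p = 0.000327). ACSS2 was 142, 98.6, 145 and 142 CPM and 221, 195, 211 and 231 CPM (0.70, SE 0.11, adjusted p = 0.000336). None of the 3 overlapped between the ranges.

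ACACB showed the largest difference downwards, with the WT values given above of 64.4 to 77.0 CPM in rats 17 to 24 and 33.2 to 47.0 CPM in rats 25 to 32 (log2 difference -0.86, SE 0.12, edgeR adjusted p = 5.69e-05). FDFT1 (-0.42, SE 0.10, adjusted p = 0.00737) and SCAP (-0.28, SE 0.07, adjusted p = 0.0047) were lower too, SCAP with 112, 126, 133 and 128 CPM and then 97.6, 105, 106 and 100 CPM. NR1H3 (0.52, SE 0.08, adjusted p = 0.000116), INSIG1 (0.45, SE 0.13, adjusted p = 0.0233), STARD4 (0.39, SE 0.12, adjusted p = 0.0332) and SC5D (0.34, SE 0.06, adjusted p = 0.000518) were higher in WT rats 25 to 32, as were MSMO1 (0.25, SE 0.08, adjusted p = 0.0363), MVD (0.24, SE 0.08, adjusted p = 0.0402) and FDPS (0.20, SE 0.06, adjusted p = 0.0332). The call of INSIG1 was lost without WT rat 19, 23 or 25 (adjusted p up to 0.1), that of STARD4 without any of WT rats 17, 19, 21, 25, 27 or 29 (up to 0.096), that of FDPS without WT rat 19, 21, 23, 25, 29 or 31 or KO rat 18 (up to 0.136), that of MSMO1 without WT rat 19, 21, 23, 25, 29 or 31 or KO rat 18 or 32 (up to 0.136), and that of MVD without any single WT rat or KO rat 18 or 32 (up to 0.104).

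**Figure D4:**
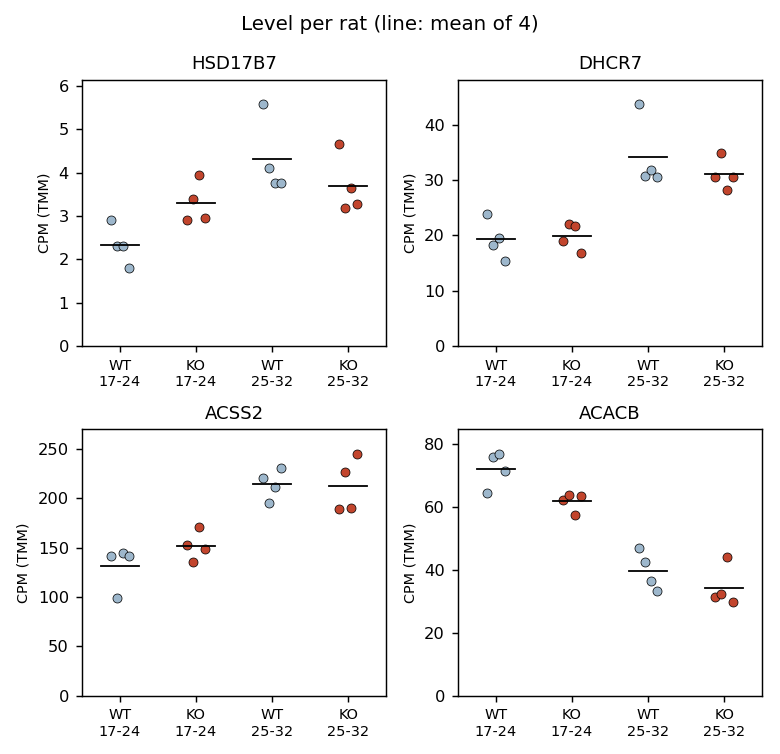
CPM after TMM scaling (y axis, from 0) of HSD17B7, DHCR7, ACSS2 and ACACB in each rat, by genotype and number range (x axis); points are rats, 4 a group, and lines the group means. In the WT rats HSD17B7, DHCR7 and ACSS2 lie higher and ACACB lower in range 25 to 32, without overlap between the ranges.

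Some animals stood high in RNA of the sterol synthesis genes within their groups of 4, in both species. KO mouse 6 had the highest value for 11 of the 17 members of the mevalonate and squalene steps and the lowest for 0. WT mouse 2 had the highest for 9 of the 17 and the lowest for 3. WT rat 17 had the highest value of the 4 WT rats of its range for 10 of the 15 members of the mevalonate and squalene steps and the lowest for none. WT rat 25 had the highest of its 4 for 11 of the 15 and the lowest for none. With rat 17 left out, 3 members (SQLE, CYP51A1 and SCAP) passed in rats 17 to 24. With all rats none passed there, beside 6.96% of all symbols. With rat 25 left out, 8 members passed between the WT ranges, and 8 also without WT rat 19. With all rats 13 passed there, beside 21.1% of all symbols. The share of all symbols in each fit with a rat left out is not given here, so these counts are not read as a trait of the members.

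The last comparison asked whether the change differed between species, after scaling the rat reads by the 75th percentile of each library. It did for 2 of the 33 members in both tables, beside 12.2% of the 11469 symbols tested. ELOVL6 was among the 33 through its mouse values alone, and its 1 to 8 reads a rat leave its rat change unmeasured. The change in rats was the mean over both number ranges. For ELOVL5 the change in rats minus that in mice was -0.50 on the log2 scale (SE 0.13, limma adjusted p = 0.0113). The mice had 1.29 to 1.56 scaled units in WT and 1.40 to 1.57 in KO, with a log2 fold change of 0.06 (SE 0.07). In edgeR the log2 fold change of ELOVL5 was -0.18 in rats 17 to 24 and -0.79 in rats 25 to 32, and the species were not compared by range. For ABCA1 the change in rats minus that in mice was -0.53 (SE 0.15, limma adjusted p = 0.0217). It lost its call without WT mouse 1 (-0.42, adjusted p = 0.0678) or KO mouse 5 (-0.49, adjusted p = 0.053). Other members passed in single fits that left out 1 animal. Without WT rat 17, SQLE (0.49, adjusted p = 0.0249), PMVK (0.41, adjusted p = 0.038), CYP51A1 (0.47, adjusted p = 0.0473) and EBP (0.33, adjusted p = 0.0342) passed. MVK (0.39, adjusted p = 0.0448) and MSMO1 (0.52, adjusted p = 0.0384) passed without WT mouse 1, and CYP51A1 (0.50, adjusted p = 0.0492) and EBP (0.35, adjusted p = 0.0302) without WT mouse 2. PMVK passed without WT mouse 4 (0.45, adjusted p = 0.0349) or KO rat 26 (0.42, adjusted p = 0.0274), and EBP without WT rat 31 (0.32, adjusted p = 0.0484). STARD4 passed with a pseudocount of 1 (0.13, adjusted p = 0.0462).

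**Figure D5:**
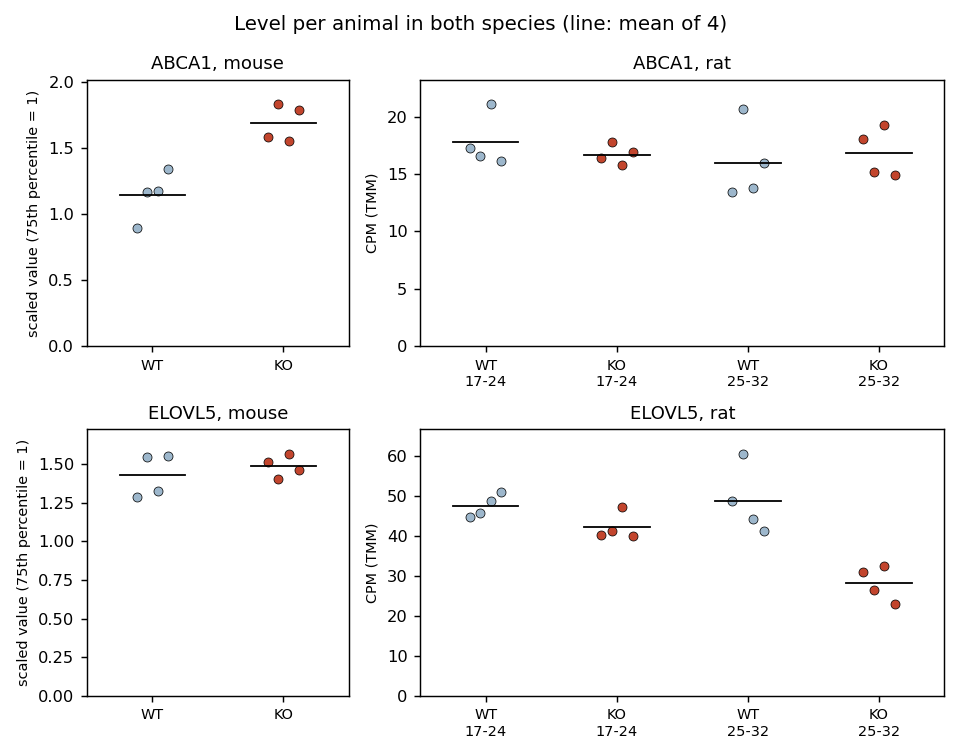
Level of ABCA1 (upper panels) and ELOVL5 (lower panels) per animal in mice (left, scaled units with the 75th percentile of the library at 1) and rats (right, CPM after TMM scaling), y axes from 0; points are animals, 4 a group, and lines the group means. ABCA1 is separated by genotype in the mouse only, where KO mice lie at 1.56 to 1.83 and WT mice at 0.895 to 1.34, and ELOVL5 is lowest in KO rats 25 to 32, at 22.9996 to 32.4 CPM.

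Other lipid genes were counted for comparison, from lists drawn up by pathway, beside shares over all symbols of 8.75% in the mouse and 6.96% in rats 17 to 24. In the mouse, 3 of 23 genes of triglyceride and phospholipid synthesis passed, all lower: DGAT2, which completes triglycerides (log2 fold change -0.46, SE 0.09, limma adjusted p = 0.00733), PCYT2 (-0.37, SE 0.09, adjusted p = 0.0182) and AGPAT3 (-0.22, SE 0.06, adjusted p = 0.0485). Of 8 further elongation and desaturation genes tested HACD2 passed (-0.23, adjusted p = 0.0367), of 24 genes of sterol storage and trafficking GRAMD1A was higher (0.25, adjusted p = 0.0297) and STARD5 lower (-0.30, adjusted p = 0.0442), and of 12 other parts of the SREBP path none passed. Among rats 17 to 24, ACSL5 (0.19, edgeR adjusted p = 0.0457) and ACSL1 (-0.25, adjusted p = 0.03), both acyl-CoA synthetases, passed of 20 triglyceride and phospholipid genes, and none of the 6, 21 and 9 tested in the other lists.

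In rats 25 to 32, where 23.7% of all symbols tested rose and 26.2% fell, counts in both directions were found in each list. Of 21 genes of sterol storage, trafficking and side chain oxidation, 11 rose and 4 fell, with a median log2 fold change of 0.19 beside -0.01 over all symbols. The largest rises were CH25H (1.18, SE 0.26), HSD3B7 (0.81, SE 0.09) and CYP7B1 (0.69, SE 0.12), of which CH25H makes an oxysterol from cholesterol and CYP7B1 hydroxylates oxysterols, and the largest falls OSBPL8 (-1.55, SE 0.23) and ACAT1 (-0.55, SE 0.06). Of 9 other parts of the SREBP path 7 fell and 1 rose, with a median of -0.23. Among them were ERLIN1 (-0.57, SE 0.07) and ERLIN2 (-0.48, SE 0.08), membrane proteins that help to keep the SREBP system inactive, and PPARGC1B (-0.80, SE 0.22), while MID1IP1 rose (0.36, SE 0.12).

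Of 20 triglyceride and phospholipid genes 4 rose and 7 fell, with ACSL5 (log2 fold change 0.85, SE 0.06), AGPAT2 (0.71, SE 0.09) and LPIN3 (0.21, SE 0.08) as the largest rises and MOGAT2 (-0.94, SE 0.36), ACSL1 (-0.61, SE 0.07) and GPAM (-0.50, SE 0.19) as the largest falls. ACSL5 and ACSL1 passed in opposite directions in both ranges. Of 6 further elongation and desaturation genes the elongases ELOVL2 (-0.82, SE 0.09) and ELOVL1 (-0.59, SE 0.06) fell, and HSD17B12 (0.25, SE 0.10) and TECR (0.16, SE 0.06), which serve the later steps of each elongation round, rose. All of these passed with edgeR at an adjusted p under 0.05, in a range where 50.0% of all symbols did.

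Markers of other cells moved with genotype in rats as in mice. In rats 25 to 32 all 6 fibroblast markers and all 4 proliferation markers tested rose, with sums of 403 to 454 CPM against 190 to 213 CPM for the former and 58.2 to 65.9 CPM against 10.7 to 12.8 CPM for the latter, and in the mouse the 6 proliferation markers summed to 49.99 to 99.6 CPM in KO and 9.99 to 17.1 CPM in WT. Adipocyte markers in rats 25 to 32 summed to 23.5 to 32.2 CPM in KO and 15.8 to 22.8 CPM in WT (3 of 4 tested rose), adrenal cortex markers to 11.3 to 18.4 CPM and 7.30 to 9.13 CPM (0 of 3 tested passed), and liver-type secretory genes to 20.3 to 34.3 CPM and 1.11 to 2.04 CPM (both tested rose). In the mouse, adrenal markers summed to at most 1.71 CPM and liver-type genes to 67.3 to 103 CPM in KO and 44.3 to 94.9 CPM in WT. In rats 25 to 32 the liver-type sum was mostly FGB (means 25.4 CPM in KO and 1.25 CPM in WT), with ALB at 0.06 CPM in both. In mice FGB was lower in KO (3.83 against 6.98 CPM). Of the adipocyte markers in that rat range, CIDEC (11.2 against 7.14 CPM) and FABP4 (4.40 against 1.48 CPM) were higher in KO. ADIPOQ was 11.6 CPM in KO and 10.3 CPM in WT, and PLIN1 0.03 CPM in both. The part of other cells in the members' changes was not tested.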

How the data were processed

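Total RNA of kidney was made into stranded mRNA libraries from 8 mice and 16 rats, and per the labels the submitters' processing notes name bcl2fastq 2.20, STAR 2.7.3, DESeq2 1.24.0, R 3.6.1 and the builds rn5 and mm10, without saying which step each served. For the mouse, the authors deposited a scaled signal per symbol, found from the values to be reads plus 0.5 over the library's 75th percentile plus 0.5; reads were whole, to within 0.01, for 99.0% of values after undoing it. The rat table that the authors deposited holds estimated counts with a constant added to each; it was taken off and the counts, 97.7% of them whole, were rounded. Symbols are of the human style, and 1 symbol can cover several rodent genes; members whose reads were not whole were IDI1 and SCD in the mouse and SCD and ELOVL6 in the rat.

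Mouse values at or above 0.02 in at least 4 mice were tested with limma 3.58.1 (trend, robust) on log2(value + 0.01), a smaller constant than 1 since 1 is the 75th percentile; a fold change on this scale is slightly understated for low genes. Rat counts were tested with edgeR 4.0.16 (quasi-likelihood, TMM, filter on low counts) in R 4.3.3. The model had 4 groups of genotype and number range, since the rats separate by range. The rat SE is the size of the log2 fold change over the square root of the F statistic of its test, and is approximate. The species were compared with limma on scaled values, with the rat change averaged over both ranges. P-values were adjusted over all symbols by the Benjamini-Hochberg method at 0.05. The members, lists and tests were chosen with earlier results of these data known. Members were named with values where they passed, or as regulators, or where their group had none that passed, and per animal for the 3 largest changes each way; further members are given per animal where overlap or a single animal bears on the call. Alternatives were other pseudocounts and filters, edgeR and DESeq2 1.42.0 on recovered mouse reads, DESeq2, limma-voom and other size factors in rats, genotype without range, each range alone, and leaving out each animal. Depth covers counting error only; the number of animals limits precision. Libraries of a group differed by more than sampling noise in every pair (chi-square divided by its degrees of freedom at least 12.3 in 12 pairs of mice and 8.60 in 24 pairs of rats). The mouse and species limma tests, the edgeR contrasts within each range and that for the difference between ranges were run on simulated data first. The contrasts over both ranges and between WT ranges, and the alternatives, were not. Marker lists were proximal tubule, macrophage, adipocyte, adrenal cortex, proliferation, fibroblast, sex-linked and liver-type genes; the rat table lists no sex-linked marker.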

Additional observations from a re-analysis of the deposited data

Results flagged for a closer look

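Within groups of 4 animals, 16 of the 206 groups of member values (7.77%) held a single animal far from the other 3, where chance gives about 1 in 20. In mice, in scaled units, these were MVD in KO mouse 3 (0.747, others 0.914 to 0.931), CYP51A1 in WT mouse 7 (7.08, others 4.01 to 4.33), FASN in WT mouse 7 (3.24, others 1.72 to 1.84), TM7SF2 in WT mouse 2 (0.369, others 0.246 to 0.258), ACSS2 in WT mouse 1 (6.27, others 4.82 to 4.88) and STARD4 in KO mouse 6 (2.91, others 2.49 to 2.54). In WT rats, in CPM, they were HMGCS1 in rat 17 (39.5, others 34.7 to 35.4), SREBF2 in rat 23 (47.6, others 57.8 to 59.5), ACSS2 in rat 19 (98.6, others 142 to 145), ACLY in rat 31 (126, others 148 to 151), and, in rat 25, DHCR7 (43.8, others 30.5 to 31.8), INSIG1 (61.2, others 38.5 to 42.2) and ABCG1 (29.97, others 22.9 to 23.8). In KO rats they were FDFT1 in rat 32 (149, others 120 to 121), SCD in rat 24 (2.13, others 1.118 to 1.197) and ABCG1 in rat 26 (23.7, others 34.0 to 35.6). WT rat 25 thus held 3 of the 16, and each of these was on the high side.

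The change with genotype differed between the rat ranges for 5 members by the test of the difference itself (edgeR): PMVK (log2 0.54), ABCG1 (0.56), SC5D (-0.34), ELOVL5 (-0.61) and STARD4 (-0.61). It differed between species for ELOVL5 (-0.50) and ABCA1 (-0.53) (limma).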

How the results depend on the processing

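No member changed direction past the threshold under any alternative run. Of the values of single members under the alternatives, 4439 kept their side of the threshold, 62 newly passed and 134 lost the call. The cause of each was not tested. Where a member passed in neither fit its direction could change, as for 5 of the 37 members without KO mouse 3. In the mouse, 2 members passed with edgeR on recovered reads and 2 with DESeq2 on recovered reads, in place of 1. In the rat over both ranges, genotype alone without the range gave 6 members of 3180 symbols, in place of 14 of 5211: the calls of MVK, MVD, FDFT1, SC5D, SCAP, ACACB, FADS1 and NR1H3 were lost. In rats 17 to 24, 1 member passed with DESeq2, 1 with limma-voom and 1 with that range fitted alone, in place of 0. With each animal left out in turn, the members that passed were 1 to 2 in the mouse, 10 to 14 in the rat over both ranges, 0 to 3 in rats 17 to 24, 11 to 15 in rats 25 to 32, 2 to 6 for the difference between ranges, 8 to 14 between WT ranges and 1 to 6 for the difference between species. The symbols that passed were then 514 to 1336 in the mouse (514 without KO mouse 5, 524 without KO mouse 6 and 714 without KO mouse 3), 503 to 890 in rats 17 to 24 (503 without WT rat 21, 543 without KO rat 24) and 1010 to 2392 for the difference between ranges (1010, 1135 and 1163 without rats 28, 22 and 27). No paired analysis was possible because the groups share no replicate numbers. With 4 animals a group, changes under about 2 standard errors could not be seen. Some larger ones did not pass after adjustment either, such as STARD4 in the mouse (limma adjusted p = 0.0583). A member that did not pass is therefore not shown to be unchanged. Member counts given here without the count of all symbols for the same fit are not read as a result about the members. ELOVL6 was too low to test within the rat.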
